A study of Mus musculus with 10 samples.

Results

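The genes described here encode the matrix glycoproteins and proteoglycans, the proteins of the extracellular matrix that are not collagens. They are 37 genes taken by name, out of 32903 genes with a transcript in the deposited table, and all 37 were among the 14597 genes with enough counts to be tested. The RNA came from preadipocytes, the precursors of fat cells, taken from inguinal subcutaneous fat; the mice were male, wild-type C57BL/6. Cells of 5 libraries had received the vehicle DMSO and cells of the other 5 had received 2.5 µM BPS (bisphenol S, a plastics chemical related to bisphenol A) in DMSO, with no other agent or allele given for either group. The labels give neither a mouse age nor a length of exposure, and they do not say if replicates came from different mice or cultures, so p-values measure only the spread between these libraries, which may be technical. The comparison of BPS with DMSO is the only one the design holds.

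Fibroblast-like cells such as preadipocytes make the matrix they sit in. Fibronectin and the matricellular proteins link cells to collagen and modulate adhesion and growth factor signals, fibrillin microfibrils form the scaffold on which elastin is laid down, and small leucine-rich proteoglycans bind collagen fibrils. Versican fills the space between fibres with hyaluronan, whereas laminins, nidogens and perlecan build the basement membrane, a sheet that surrounds each mature fat cell. Matrix around preadipocytes is remodelled during fat cell formation, from a fibronectin-rich fibrillar matrix toward a basement membrane rich in laminin.

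The libraries held 37920689 to 42717227 estimated counts each. The 37 genes held 5.36% to 5.51% of the counts assigned to genes in DMSO and 5.44% to 5.63% in BPS, and these ranges overlap. BPS replicate 1 was the lowest of the 5 BPS values for 25 of 37 genes. The matching share over all genes was not computed. Over all genes with at least 20 counts, it varied from the other BPS libraries by 5.10 to 8.77 times counting error. Those other BPS libraries varied among themselves by 4.40 to 5.49 times. Results that move without BPS replicate 1 are given below. The library numbers place all DMSO libraries before the BPS libraries, so a batch that follows that order cannot be told apart from the treatment. Collagen I was abundant in both groups (Col1a1 at 21820 CPM in DMSO against 21910 CPM in BPS, where CPM are counts scaled to a common library size), and the 5 adipocyte markers had 0 to 5 counts per library. In bulk RNA, fewer cells of a type and less RNA per cell cannot be told apart.

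Among the markers of preadipocytes and fibroblasts, 2 of 9 were called higher in BPS, against 3.06% of all genes tested, and none was called lower. Thy1 went from 848 to 968 CPM and Cd34 from 45.2 to 54.9 CPM. The other 7 did not pass the test: Pdgfra had a log2 fold change of -0.07 (edgeR adjusted p = 0.0777), Pdgfrb -0.02, Dpp4 -0.20, Pi16 0.125, Col1a2 0.04, and Ly6a and Col1a1 were between 0.001 and 0.006. The summed level of the 5 mural cell markers ran from 43.3 to 47.9 CPM in DMSO libraries and from 49.2 to 56.4 CPM in BPS libraries, with no overlap. Most of that sum was Cspg4, itself a proteoglycan gene, which went from 39.1 to 43.5 CPM (log2 fold change 0.16, edgeR adjusted p = 0.0467). It was the 1 called of the 5 mural markers, against 3.06% of all genes tested called higher. The other mural markers overlapped between groups and did not pass the test (edgeR adjusted p from 0.358 to 0.936). Their log2 fold changes were 0.11 for Rgs5, 0.27 for Kcnj8, 0.05 for Abcc9 and 0.21 for Myh11. The summed macrophage (4.41 to 6.62 and 4.98 to 6.23 CPM) and endothelial markers (17.03 to 22.4 and 16.4 to 22.0 CPM) overlapped between DMSO and BPS. So did the summed mesothelial (0.838 to 1.10 and 0.426 to 0.977 CPM) and Schwann cell markers (3.07 to 4.24 and 2.18 to 4.50 CPM). The macrophage marker Csf1r and the mesothelial markers Msln and Upk3b were at 0 in every library. Other markers of the same lists had counts, among them Cd68 (macrophage, 88 to 143 per library) and Wt1 (mesothelial, 14 to 41). The part of these cell types in the results below was not tested.

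Matrix genes moved in both directions under BPS, most by small amounts: of the genes that passed the test, 7 had log2 fold changes between -0.19 and 0.34, and Tnxb had -0.97. Thbs1 (thrombospondin 1), Postn (periostin), Sparc and Fmod (fibromodulin) rose, and Vcan (versican), Nid2 (nidogen 2), Efemp2 (fibulin 4) and Tnxb (tenascin X) fell. These are 8 of 37 genes, or 21.6%, that edgeR's quasi-likelihood model called at an adjusted p (Benjamini-Hochberg, over all genes) under 0.05, against 4.88% of all genes tested. The 4 that rose stand against 3.06% of all genes higher in BPS, and the 4 that fell against 1.82% lower. The 37 genes were chosen with earlier results of these data known, so these shares do not test the group as a whole. Under scaling by library size alone, higher genes made up 45.88% of the calls over the whole table in place of 62.78%, and the matrix genes split into 3 higher and 4 lower. The BPS libraries lay wholly above or wholly below the DMSO libraries for 7 of the 37 genes, and for 6.9% of all genes tested.

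Most of the group kept its level within narrow bounds. The median log2 fold change over the 37 genes was 0.03, against 0 over all genes tested, and the median size of change was 0.07 against 0.06. Of the 29 genes that did not pass the test, 25 had a 95% interval that lay within a 1.2-fold change in either direction. The other 4, Eln, Sparcl1, Matn2 and Comp, had wider intervals. Coefficients of variation between replicates ran from 1.07% to 25.9%, and 30 of the 37 genes stayed under 10% in both groups.

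**Figure D1:**
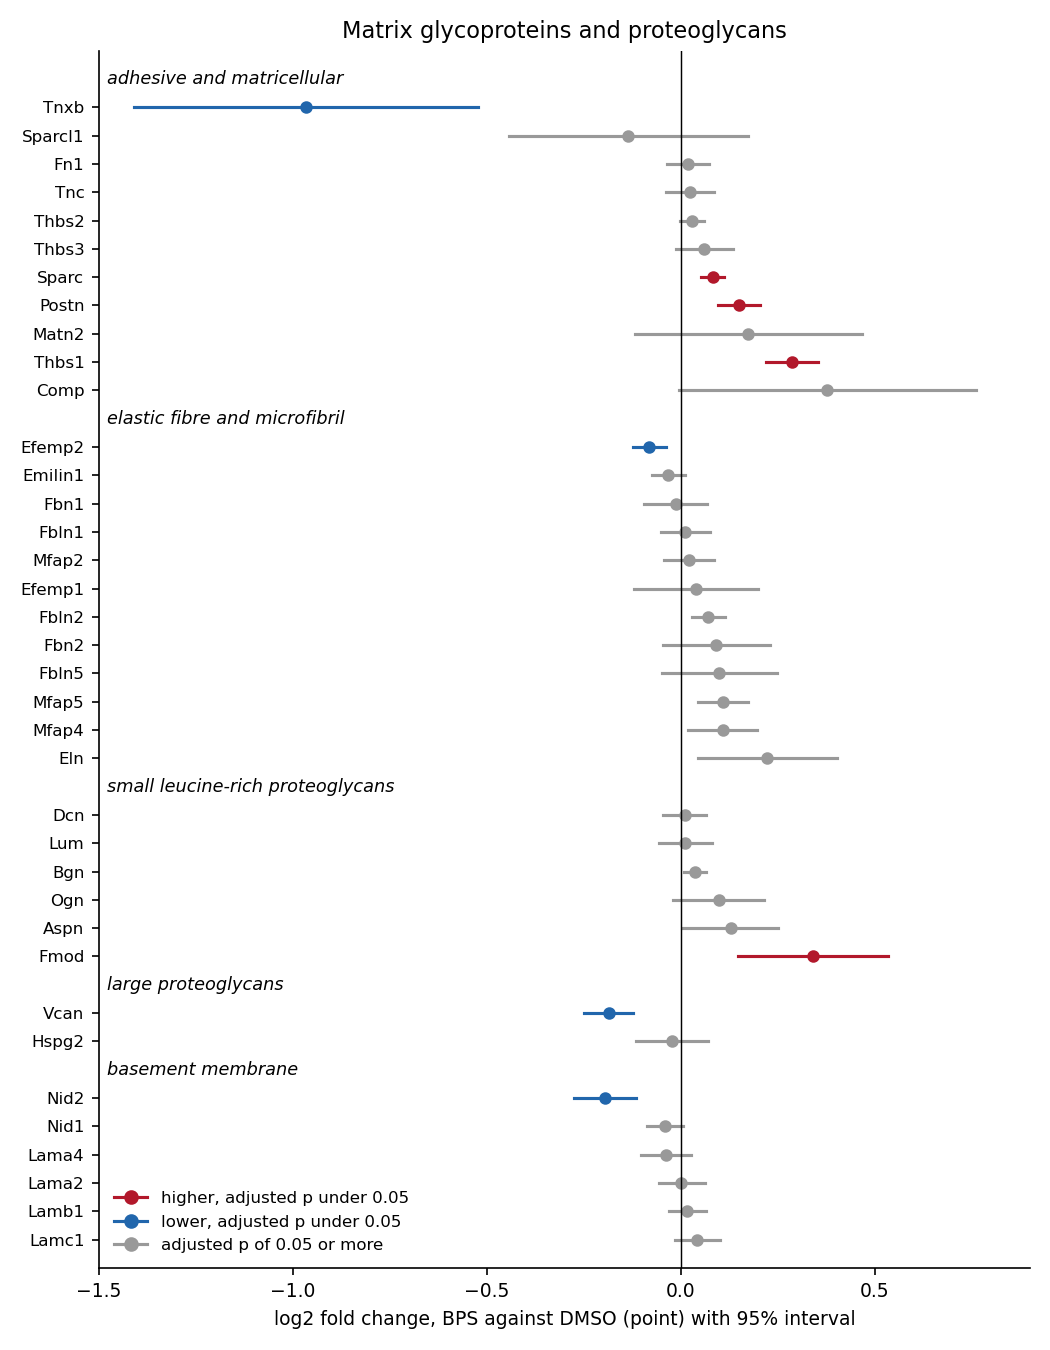
Log2 fold change of BPS against DMSO for each of the 37 genes (x axis; points, with 95% intervals as lines), grouped by role and ordered by fold change within each role (y axis). Red points are the 4 genes higher in BPS and blue points the 4 genes lower in BPS; Tnxb lies far from the others at -0.97, and grey points are the 29 genes that did not pass the test.

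Levels of different genes were compared per transcript length, as CPM per kilobase of the most counted transcript with a known length. Sparc was the most abundant of the group, at 3218 CPM per kb in DMSO and 3406 in BPS, followed by Bgn (biglycan) at 2871 and 2944. Fbln2 (fibulin 2, 1222 CPM per kb in DMSO), Fn1 (fibronectin, 1219) and Postn (941) came next, and the first 2 of these were level with each other. Comp, a cartilage glycoprotein, was the lowest at 0.224 CPM per kb in DMSO, from 15 to 31 counts per library. For Hspg2, Fbln5, Fbn1, Tnxb, Lamb1, Tnc and Thbs3 most counts lay in transcripts for which no length was at hand, so their position on this scale is approximate. The 4 most counted genes, Fn1, Sparc, Bgn and Fbln2, held 55.2% of the counts of the 37.

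**Figure D2:**
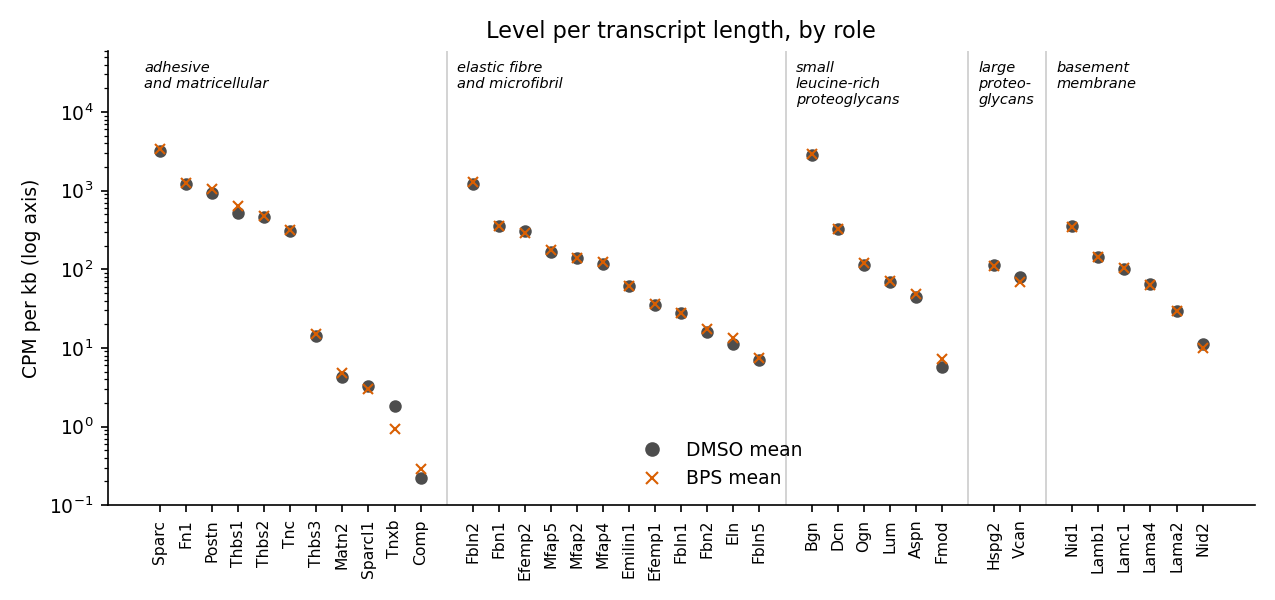
Mean level of each of the 37 genes in CPM per kilobase of transcript (y axis, log scale) in DMSO (grey circles) and BPS (orange crosses), grouped by role and ordered by the level in DMSO (x axis). Levels span from 0.224 CPM per kb for Comp to 3218 for Sparc in DMSO, and the 2 means of a gene lie farthest apart for Tnxb, at 1.82 and 0.935 CPM per kb.

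Of the 11 adhesive and matricellular genes, 3 rose, 1 fell and 7 did not pass the test. Positive fold changes were 9 of the 11 (median log2 fold change 0.06). Over all genes tested, 3.06% were called higher and 1.82% lower, and 7329 of 14597 fold changes were positive. Fn1, the fibronectin that cells assemble into fibrils through integrins, was the most counted of all 37 genes. It measured 9897, 10241, 9654, 9392 and 9829.8 CPM in DMSO replicates 1 to 5 and 9442, 10219, 10039.9, 9931 and 10031 CPM in BPS replicates 1 to 5. The groups overlapped over most of their range, and the log2 fold change was 0.02 (SE 0.03 and edgeR adjusted p = 0.758).

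Fibronectin RNA is spliced at the EDA and EDB exons, each of which codes for a type III repeat that cellular fibronectin can include and plasma fibronectin lacks. The EDA exon is shown because the share of transcripts that hold it differed between groups. It lies at chr1:71603660-71603929 on the minus strand of build GRCm38 (GENCODE annotation), within the coding sequence, and its 270 bases code for 90 residues. Capitals mark the exon and lower case marks 15 bases of the neighbouring exons on each side, in the sense of the transcript.
Fn1 EDA exon: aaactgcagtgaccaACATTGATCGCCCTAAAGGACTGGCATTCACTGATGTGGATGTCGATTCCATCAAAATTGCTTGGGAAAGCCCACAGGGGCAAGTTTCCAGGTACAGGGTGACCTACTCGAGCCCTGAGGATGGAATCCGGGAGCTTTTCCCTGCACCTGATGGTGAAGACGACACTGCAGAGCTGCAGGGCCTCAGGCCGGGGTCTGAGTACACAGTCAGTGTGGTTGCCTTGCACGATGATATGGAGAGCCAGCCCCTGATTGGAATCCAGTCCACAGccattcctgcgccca

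Transcripts with the EDA exon held 59.9, 61.2, 58.7, 59.6 and 60.4% of the Fn1 counts in transcripts with known exons in DMSO replicates 1 to 5 and 58.1, 58.0, 57.0, 58.0 and 55.4% in BPS replicates 1 to 5. Every BPS value was below every DMSO value, and BPS replicate 5 was the lowest. The mean share was 60.0 ± 0.96% in DMSO and 57.3 ± 1.13% in BPS (SD, n = 5 each; exact two-sided permutation test over 252 regroupings, p = 0.00794, the smallest possible; adjusted p = 0.0198 over the 5 exon shares computed). These shares were chosen after transcript values had been seen, and transcripts with known exons held 64.0% of all Fn1 counts. Taken over all Fn1 counts, the difference in the Fn1 EDA exon share was -1.6 percentage points in place of -2.67. A test of transcript use over all genes gave Fn1 a p of 0.0841 and an adjusted p of 1 by edgeR. Among the Fn1 transcripts with known exons, those with the EDB exon held 0.02% of counts in DMSO and 0.01% in BPS (exact permutation test, p = 0.389). Whether the remaining Fn1 counts hold the EDB exon was not examined.

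Thbs1, a matricellular protein that binds CD36 and CD47 and can activate latent TGF-beta, had the smallest p of the group. It measured 3117, 3111, 3023, 2876 and 3226 CPM in DMSO replicates 1 to 5 and 3729.5, 3924, 3570.2, 3759 and 3743 CPM in BPS replicates 1 to 5. All BPS libraries lay well above all DMSO libraries, with a gap between them nearly as wide as the range within DMSO. The mean of 3071 ± 131 CPM in DMSO rose by 22.0%, to 3745 ± 125 CPM in BPS (SD, n = 5 each; log2 fold change 0.29 with SE 0.03 and edgeR adjusted p = 0.000303). Its 2 RefSeq transcripts both rose, by 0.29 and 0.28 on the log2 scale (adjusted p = 0.0224 and 0.0379 by edgeR over all transcripts). Both are paired with the same GENCODE model, so they do not add support beyond the gene sum. The related thrombospondins did not pass the test: Thbs2 had a log2 fold change of 0.03 (adjusted p = 0.295) and Thbs3 of 0.06 (adjusted p = 0.377).

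Postn, a periostin that crosslinks collagen and fibronectin networks, measured 2983, 2936, 3020.5, 2993 and 2750.2 CPM in DMSO and 3224, 3167, 3325, 3262 and 3328 CPM in BPS. DMSO replicate 5 was the lowest of the 10 libraries, and the groups did not overlap. The mean rose from 2937 ± 109 to 3261 ± 68.6 CPM (log2 fold change 0.15 with SE 0.025 and edgeR adjusted p = 0.00553). Sparc, which binds collagen and regulates its assembly, measured 7329, 7400.2, 7529, 7439 and 7314 CPM in DMSO and 7728, 7969, 7943, 7762 and 7760.1 CPM in BPS. Its replicates were among the closest of the group, so a rise of 5.81%, from 7402 ± 87.2 to 7833 ± 114 CPM, passed the test (log2 fold change 0.08 with SE 0.01 and edgeR adjusted p = 0.00553). Sparcl1, its close relative with anti-adhesive activity, was low in these cells at 9.04 and 8.24 CPM and did not pass the test (log2 fold change -0.14, SE 0.14).

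Tnxb, tenascin X, stabilises collagen networks in connective tissue and showed the largest fold of the group. Its gene sum measured 12.5, 18.5, 20.6, 20.95 and 12.9 CPM in DMSO and 5.19, 11.1, 10.2, 9.02 and 8.30 CPM in BPS, from 207 to 811 counts per library. All BPS values were below all DMSO values, although DMSO replicates 1 and 5 lay close to BPS replicate 2. The mean fell from 17.1 ± 4.13 to 8.77 ± 2.27 CPM (SD, n = 5 each; log2 fold change -0.97 with SE 0.20 and edgeR adjusted p = 0.0196). The replicate spread was the widest of the group, at 24.2% in DMSO and 25.9% in BPS.

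This fall rested on 1 predicted transcript, XM_006525189.3. It held 335, 416, 655, 514 and 189 estimated counts in DMSO and 24.2, 108, 119, 103 and 48.6 in BPS, or 73.0, 57.6, 80.8, 64.6 and 41.0% of Tnxb counts in DMSO against 11.7, 27.8, 31.7, 32.4 and 16.2% in BPS. The shares did not overlap. Tested alone among all transcripts, it changed by -2.30 on the log2 scale (SE 0.48), and the edgeR adjusted p of 0.13 did not pass the threshold. Without it, the sum of the other 6 Tnxb transcripts was 6.04 ± 2.18 CPM under DMSO and 6.53 ± 1.28 CPM under BPS. The groups overlapped (log2 fold change 0.11 with SE 0.24 and edgeR adjusted p = 0.862). The annotated RefSeq transcript NM_031176.2 had a log2 fold change of 0.08 (SE 0.98). Matching accessions by version as well left that predicted transcript out, and the log2 fold change of Tnxb was then 0.07 (adjusted p = 0.981).

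The 6 other Tnxb transcripts were each at 0 in some libraries and above it in others. The genes on either side of Tnxb did not pass the test: Atf6b had a log2 fold change of 0.015 (adjusted p = 0.852) and C4b of -0.002 (adjusted p = 0.987). In the RefSeq table Tnxb overlaps a snRNA gene, Gm24389, and the pseudogene Cyp21a2-ps. The deposited estimates do not show which of these assignments is right.

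**Figure D3:**
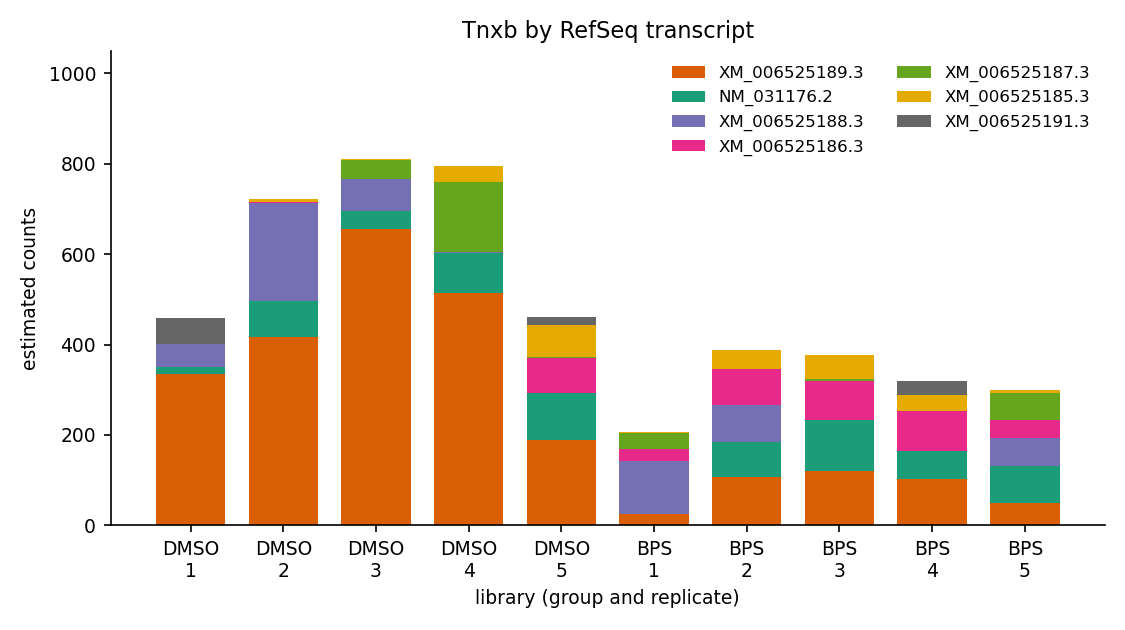
Estimated counts of the 7 Tnxb transcripts (stacked bars, y axis from 0) in each DMSO and BPS library (x axis). The orange block, XM_006525189.3, goes from 189 to 655 counts in DMSO to 24.2 to 119 in BPS, while the blocks above it appear in some libraries and not in others within both groups.

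The other adhesive genes did not pass the test. Tnc, tenascin C, an anti-adhesive protein of remodelling tissue, was at 2175 ± 67.2 CPM under DMSO and at 2212 ± 87.4 CPM under BPS. Matn2, a matrilin adaptor of filaments, was at 15.1 ± 2.23 and 16.99 ± 3.07 CPM. Comp was at 0.542 ± 0.120 and 0.702 ± 0.0758 CPM, a log2 fold change of 0.38 whose 95% interval ran from -0.005 to 0.76.

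Of the 12 elastic fibre and microfibril genes, 1 fell and none rose, against 1.82% lower and 3.06% higher over all genes tested. There were 9 positive and 3 negative fold changes (median log2 fold change 0.06). Scaling by library size alone turned the sign of Fbln1 and gave 8 positive and 4 negative. Efemp2, fibulin 4, is needed to lay elastin onto microfibrils. It measured 461, 472, 484, 493 and 468 CPM in DMSO and 439, 455, 452, 447 and 454 CPM in BPS. The groups were separate, but the gap between them was small: the lowest DMSO library was at 461 and the highest BPS library at 455. The mean fell from 475 ± 12.8 to 449.5 ± 6.59 CPM (log2 fold change -0.08 with SE 0.02 and edgeR adjusted p = 0.0371). The call was lost with upper-quartile scaling (adjusted p = 0.0695), with the replicate number as a block (0.0674), with exact version matching (0.449) and also when any 1 of 9 libraries was omitted, with adjusted p up to 0.0873; it was kept without DMSO replicate 1.

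Fbln2, which bridges fibronectin, fibrillin and basement membrane proteins, was the most counted of the elastic fibre genes. Its gene sum measured 5613, 5621, 5757, 5679 and 5706 CPM in DMSO and 5691, 6186, 6019, 5897 and 6007 CPM in BPS. BPS replicate 1 lay within the DMSO range and the other 4 BPS libraries above it. The log2 fold change was 0.07 (SE 0.02 and edgeR adjusted p = 0.0628), and without BPS replicate 1 it was 0.09 with an adjusted p of 0.00894. Among the other alternative fits, only the DESeq2 Wald test called Fbln2.

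Fbln2 has a variable exon that separates its 2 annotated RefSeq transcripts. The exon is shown because the transcript that holds it was called and the transcript that skips it was not. It lies at chr6:91259630-91259770 on the plus strand of build GRCm38 (GENCODE annotation), in the coding sequence, and its 141 bases code for 47 residues. Capitals mark the exon and lower case marks 30 bases of the neighbouring exons on each side; the skipped form joins these directly.
Fbln2 with the variable exon: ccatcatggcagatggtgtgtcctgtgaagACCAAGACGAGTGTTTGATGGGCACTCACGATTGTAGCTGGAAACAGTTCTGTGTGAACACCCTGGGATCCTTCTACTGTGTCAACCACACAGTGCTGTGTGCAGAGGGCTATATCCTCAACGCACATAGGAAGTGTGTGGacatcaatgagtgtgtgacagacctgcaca
Fbln2 without the variable exon: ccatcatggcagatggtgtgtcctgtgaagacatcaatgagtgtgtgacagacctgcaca

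The transcript with the exon, NM_007992.2, rose from 1910.0 ± 38.6 to 2155 ± 69.8 CPM in the fit over all transcripts (log2 fold change 0.17 with SE 0.02 and edgeR adjusted p = 0.0174). The transcript without it, NM_001081437.1, was at 3314 ± 43.5 and 3327 ± 92.2 CPM (log2 fold change 0.01, adjusted p = 1). Transcripts with the exon held 37.4, 36.0, 36.9, 36.2 and 36.3% of Fbln2 counts in transcripts with known exons in DMSO and 39.1, 39.2, 39.9, 39.2 and 39.2% in BPS. Every BPS library was above every DMSO library, BPS replicate 1 included, and the BPS values lay close together. The mean share was 36.6 ± 0.58% and 39.3 ± 0.31% (SD, n = 5 each; exact two-sided permutation test, p = 0.00794, the smallest possible; adjusted p = 0.0198 over the 5 shares). Transcripts with known exons held 98.6% of all Fbln2 counts, and the shares were chosen after transcript values had been seen. The test of transcript use over all genes gave Fbln2 a p of 0.0629 and an adjusted p of 1 by edgeR, so a change in the use of the exon did not pass it.

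**Figure D4:**
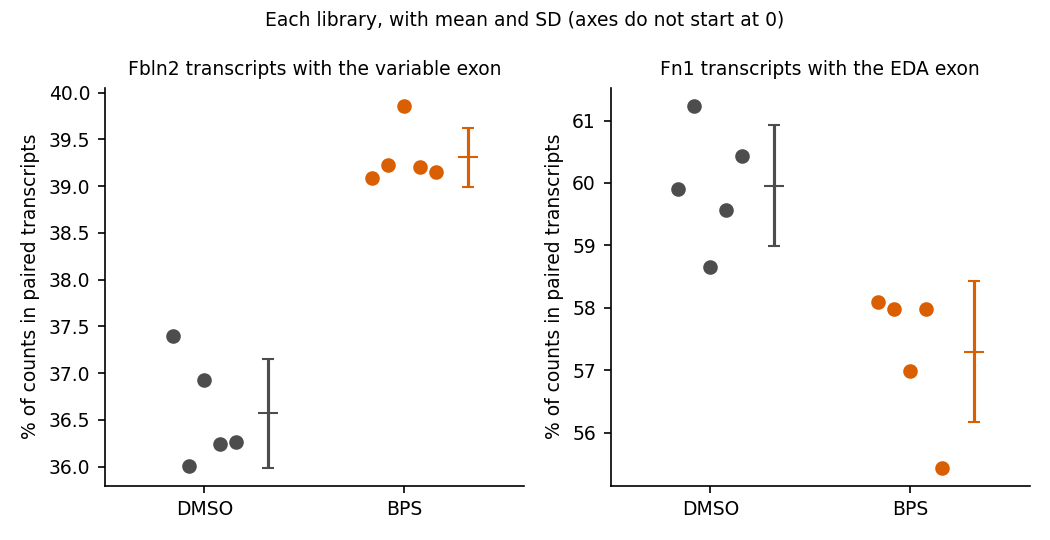
Share of counts with the variable exon among Fbln2 transcripts of known exons, which held 98.6% of all Fbln2 counts (left, y axis in percent) and share of counts with the EDA exon among Fn1 transcripts of known exons, which held 64.0% of all Fn1 counts (right, y axis in percent), for each DMSO and BPS library (points), with mean and SD (bars); the axes do not start at 0. For Fbln2 the BPS libraries lie at 39.1% to 39.9% above DMSO at 36.0% to 37.4%, and for Fn1 they lie at 55.4% to 58.1% below DMSO at 58.7% to 61.2%.

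Across the table of transcripts, 5 of 97 tested transcripts of the 37 genes were called, against 0.335% of all transcripts tested: 2 of Thbs1 and 1 each of Postn, Sparc and Fbln2. All 5 were higher in BPS, and the 2 of Thbs1 are paired with the same GENCODE model. Their mean counts ran from 56902.5 to 233183.7 per library. The share over all transcripts was not matched for counts, so the 2 shares do not set these genes apart. None of the 23 genes with at least 2 tested transcripts was called for a change in transcript use (edgeR), against 0.121% of genes tested. At an unadjusted p under 0.05, edgeR's model gave 2 genes, Emilin1 (adjusted p = 0.156) and Dcn (adjusted p = 0.662). For Emilin1, an elastin-associated glycoprotein, the predicted transcript XM_006503648.2 measured 28.7, 19.4, 20.01, 18.6 and 27.9 CPM in DMSO and 24.3, 41.1, 30.04, 38.6 and 35.1 CPM in BPS. Its groups overlapped through BPS replicate 1, and it did not pass the test over all transcripts (log2 fold change 0.56 with SE 0.18 and edgeR adjusted p = 0.45). The test of its use within the gene gave an adjusted p of 0.843 by edgeR. This transcript was chosen after its values were seen.

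The microfibril proteins and elastin did not pass the test as genes. Mfap5, which binds fibrillin and Notch ligands, measured 238, 251, 264, 250.1 and 237 CPM in DMSO and 262, 267, 278, 269 and 260.2 CPM in BPS. DMSO replicate 3 lay within the BPS range and the other DMSO libraries below it (log2 fold change 0.11 with SE 0.03 and edgeR adjusted p = 0.0607). Without DMSO replicate 3 the adjusted p was 0.0228, and the DESeq2 Wald test called both Mfap5 (adjusted p = 0.0154) and Fbln2 (adjusted p = 0.016). Eln, elastin itself, was at 43.6 ± 3.75 CPM under DMSO and at 50.9 ± 6.10 CPM under BPS (log2 fold change 0.22 with SE 0.08 and edgeR adjusted p = 0.157). Without BPS replicate 1 it had 0.29 with an edgeR adjusted p of 0.0264, and no other alternative fit called it. That library held the lowest BPS value of Eln, 41.5 CPM, which lay inside the DMSO range of 40.0 to 47.9 CPM.

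Fbn1, the main fibrillin, was at 3531 ± 113 and 3500.0 ± 207 CPM, and Fbn2, the developmental fibrillin, at 178 ± 12.6 and 189 ± 16.8 CPM. Fbln1 and Fbln5, 2 further fibulins, had log2 fold changes of 0.01 and 0.10. Mfap4, which binds elastin, had 0.11 (SE 0.04, adjusted p = 0.165), and Mfap2, a microfibril protein related to Mfap5, had 0.02. Emilin1 had -0.03, and Efemp1, the fibulin 3 gene, had 0.04.

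Of the 6 small leucine-rich proteoglycans, 1 rose, against 3.06% of all genes tested. All 6 fold changes were positive (median log2 fold change 0.07), against 7329 of 14597 over all genes tested. With library size alone Lum and Dcn turned negative, so 4 of 6 were positive. Fmod, fibromodulin, binds collagen and steers fibril growth and crosslinking. It measured 14.6, 17.04, 21.3, 18.6 and 16.6 CPM in DMSO and 20.6, 22.0, 24.8, 21.2 and 23.1 CPM in BPS, from 535 to 917 counts per library. DMSO replicate 3 lay above 2 of the BPS libraries, so the groups overlapped. The mean rose from 17.6 ± 2.51 to 22.4 ± 1.69 CPM (log2 fold change 0.34 with SE 0.09 and edgeR adjusted p = 0.0487), close to the threshold. The call was lost with DESeq2 size factors (adjusted p = 0.0505), library size alone (0.0544) and robust estimation (0.0607), and also when any 1 of 8 libraries was omitted, up to an adjusted p of 0.109; it was kept without DMSO replicate 3 and without BPS replicate 1. With exact version matching Fmod was not tested.

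Bgn, biglycan, the most counted of these proteoglycans, can be shed as a danger signal as well as bind collagen. It measured 6892, 6984, 7073, 6966 and 6806 CPM in DMSO and 7141, 7069, 7240.2, 7120.4 and 7041 CPM in BPS. The highest DMSO value lay above 2 BPS values, and the gene did not pass the test (log2 fold change 0.04 with SE 0.01 and edgeR adjusted p = 0.149). Dcn (decorin, which binds collagen and TGF-beta) was at 567 ± 19.96 and 571 ± 13.5 CPM, and Lum (lumican) at 169.7 ± 7.96 and 171 ± 4.87 CPM. Ogn (osteoglycin) had a log2 fold change of 0.10 (SE 0.05) and Aspn (asporin) of 0.13 (SE 0.06). Both Ogn and Aspn overlap Cenpp in the RefSeq table, which had 311 to 391 counts and did not pass the test.

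The 2 large proteoglycans differed in their outcome: Vcan fell and Hspg2 did not pass the test. Vcan, versican, carries chondroitin sulfate chains and binds hyaluronan around cells. It measured 665, 678, 644, 643 and 653 CPM in DMSO and 535, 591, 579.5, 576 and 605 CPM in BPS. All BPS libraries were below all DMSO libraries, BPS replicate 1 by the most. The mean fell from 657 ± 14.9 to 577 ± 26.3 CPM, a change of -12.1% (log2 fold change -0.19 with SE 0.03 and edgeR adjusted p = 0.00439), and without BPS replicate 1 the log2 fold change was -0.16 with an adjusted p of 0.00205. With exact version matching it was -0.18 with an adjusted p of 0.0991, and no Vcan transcript passed the test when taken alone.

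Versican RNA differs by 2 large exons that code for the chain-bearing regions. Transcripts with known exons, those paired with GENCODE models, held 84.7% of all Vcan counts. The shares that follow are of counts and are not scaled by transcript length, which ran from 2273 to 12427 bases. Transcripts with the beta exon held 97.8 ± 1.78% of paired Vcan counts in DMSO and 98.0 ± 1.31% in BPS (exact permutation test, p = 0.937), and those with the alpha exon 23.2 ± 1.86% and 24.7 ± 0.71% (p = 0.135, exact permutation test). The main transcript, NM_019389.2, which holds the beta exon and lacks the alpha exon, was at 388.5 ± 24.6 and 337 ± 25.6 CPM (log2 fold change -0.20, SE 0.06).

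Hspg2, perlecan, a heparan sulfate proteoglycan of basement membranes, measured 1568.5, 1797, 1531, 1535 and 1598 CPM in DMSO and 1483, 1622, 1638, 1589.96 and 1572 CPM in BPS. DMSO replicate 2 was far above the other DMSO libraries and above every BPS library. The log2 fold change was -0.02 (SE 0.04 and edgeR adjusted p = 0.839), and without DMSO replicate 2 it was 0.02 with an adjusted p of 0.772.

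Of the 6 basement membrane genes, 1 fell and 5 did not pass the test, against 1.82% of all genes tested called lower. There were 3 positive and 3 negative fold changes (median log2 fold change -0.02). With library size alone Lama2 turned negative. Nid2, nidogen 2, connects laminin and collagen IV networks. It measured 52.5, 56.9, 57.2, 55.3 and 53.5 CPM in DMSO and 45.6, 49.5, 48.5, 46.1 and 51.1 CPM in BPS. The groups were separate, with BPS replicate 5 the closest to DMSO. The mean fell from 55.1 ± 2.08 to 48.2 ± 2.32 CPM (log2 fold change -0.19 with SE 0.04 and edgeR adjusted p = 0.0116). Nid2 overlaps Rtraf in the RefSeq table, which had 3978 to 4701 counts and a log2 fold change of 0.02 (adjusted p = 0.647).

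Nid1, its more abundant relative with the same partners, measured 2255, 2218, 2160.2, 2135 and 2176 CPM in DMSO and 2053, 2196, 2097, 2112 and 2177 CPM in BPS. The groups overlapped, with a log2 fold change of -0.04 (SE 0.02 and edgeR adjusted p = 0.326). The laminin chains did not pass the test: Lama2 was at 281 ± 6.70 and 282 ± 11.2 CPM, and Lama4, the alpha chain of fat and vessel basement membranes, at 387 ± 6.20 and 377 ± 18.3 CPM. Lamb1 was at 819.5 ± 10.8 and 829 ± 27.1 CPM, and Lamc1, the shared gamma chain, at 769.5 ± 16.1 and 793 ± 31.9 CPM.

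**Figure D5:**
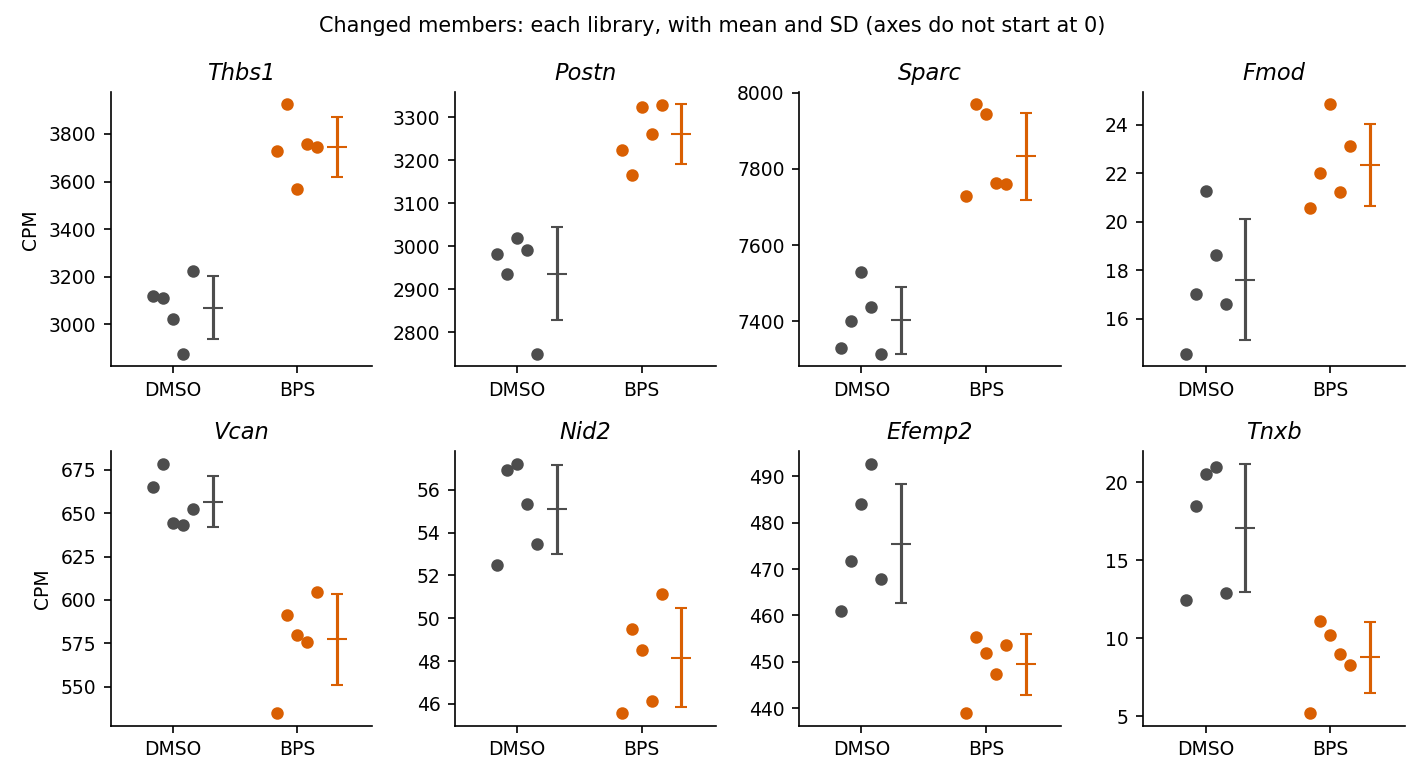
Level in CPM (y axis, which does not start at 0) of the 8 genes that passed the test, for each DMSO library (grey points) and BPS library (orange points), with mean and SD (bars). The points of the 2 groups are separate for every gene shown except Fmod, where DMSO replicate 3 at 21.3 CPM lies above BPS values of 20.6 and 21.2 CPM.

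Thbs1, Postn, Sparc and Nid2 kept both their sign and an adjusted p under 0.05 in all 20 alternative fits run, which comprised 3 other scalings, 2 other filters, 3 other tests, a block for the replicate number, exact version matching and 10 fits without 1 library. Fmod, Efemp2, Vcan and Tnxb lost the call in at least 1 of them.

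Genes that work with the same matrix were taken from 3 lists. Of 46 tested genes for other matrix glycoproteins and proteoglycans (61 listed), 6 were higher and 0 lower in BPS. Over all genes tested, 3.06% were called higher and 1.82% lower. Mfge8, an integrin-binding glycoprotein, went from 184 ± 3.98 to 199.8 ± 2.91 CPM (log2 fold change 0.12, adjusted p = 0.00377). Dpt, dermatopontin, which binds decorin, had 0.13 (adjusted p = 0.00656), Tinagl1 0.225 (adjusted p = 0.0113) and Ltbp4, a latent TGF-beta binding protein of elastic fibres, 0.16 (adjusted p = 0.0144), all by edgeR. The median log2 fold change of this list was 0.01, with 28 positive and 18 negative.

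Of 40 genes for glycosaminoglycan chain synthesis, 2 were higher and 1 lower, with a median of -0.006. The shares over all genes tested were 3.06% higher and 1.82% lower. Counts this small, here and for the receptors that follow, do not set a list apart. Chst11, a chondroitin 4-sulfotransferase, went from 124 to 134 CPM (log2 fold change 0.11, adjusted p = 0.0173) and Papss1, which makes the sulfate donor, from 142 to 149.6 CPM (0.08, adjusted p = 0.0316). Has2, which makes the hyaluronan that versican binds, went from 42.0 to 38.5 CPM (-0.12, adjusted p = 0.0236). Of 18 tested matrix receptors other than integrins (20 listed), 1 was higher and 1 lower: the cell surface proteoglycan Gpc4 (glypican 4) went from 126 to 139 CPM (0.15, adjusted p = 0.00208) and Gpc1 (glypican 1) from 238 to 223 CPM (-0.10, adjusted p = 0.0275 by edgeR). The 3 lists together had 11 called genes of 104 tested (9 higher and 2 lower), where 4.88% of all genes tested were called. The groups did not overlap for 14 of the 104, against 6.9% of all genes tested. The 9 genes named here were taken from the called ones, and their groups did not overlap.

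RefSeq promoter windows, from 250 bases before to 50 after the start on build GRCm38.p6, were at hand for 23 of the 37 genes (30 windows). The letters GCGTG, the core of the xenobiotic response element, stood on either strand of 12 of the 30 windows, against 32.4% of 32851 windows of all genes. Windows were at hand for 6 of the 8 called genes, and Efemp2 was the one of these 6 with a GCGTG match. Its matches stood in windows whose starts lay 742 and 47 bases from the GENCODE start of its most counted paired transcript. The Efemp2 window 2 bases from that start had none. Window starts lay 391 bases from the GENCODE start for Vcan, 201 for Sparc, and 1842 and 2 for Postn. The AP-1 letters TGANTCA stood in 2 windows, of Efemp1 and Tnxb, against 7.8% of all windows. A match describes letters, not a bound site, and its absence says only that the letters are not in this window.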

How the data were processed

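The authors deposited estimated counts for 107384 RefSeq transcripts in 10 libraries (5 DMSO, 5 BPS), from kallisto 0.42.4 per the submitters' processing notes, a program that splits ambiguous reads among similar transcripts. Libraries were made with a directional kit per the labels' protocols; the index, genome build and strand setting are not given in the sources used here. The deposited estimated counts were fractional and unscaled. Transcripts were assigned to genes by accession without version through a RefSeq table of GRCm38.p6, which placed 86722 transcripts and 93.1% of the counts in 32903 genes; the rest stayed out of gene tests. Sums were rounded, filtered (filterByExpr), scaled by TMM (factors 0.9854 to 1.008) and compared between the 2 groups with edgeR's quasi-likelihood test. No covariate was fitted, and p-values were adjusted (Benjamini-Hochberg) over the 14597 genes, or over 37588 transcripts in the transcript fit. CPM are over the TMM-scaled library size of each fit, so gene and transcript CPM are on separate scales. Standard errors are the unshrunken log2 fold change over the square root of F. The biological coefficient of variation was 0.0588. With total counts of 37920689 or more per library, counting error is small beside replicate spread except for genes with few counts.

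Exon shares were computed from transcripts paired with GENCODE models, which also gave lengths and sequences, and tested by exact permutation over the 10 libraries. Transcript use was tested with edgeR's diffSpliceDGE. Within each group, libraries varied 4.13 to 8.77 times as much as counting error gives, and none was deposited a second time. The code was tested on simulated counts. Tools were edgeR 4.0.16, DESeq2 1.42.0 and limma 3.58.1 under R 4.3.3, and pandas 2.3.3 with numpy 2.4.6 under Python 3.11.15.

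The members, role groups, related lists and markers were chosen with earlier results of these data known. Every member is accounted for; library values are given for called members, for Tnxb and for the most counted member of each role, and for further genes (Mfap5, a transcript of Emilin1) chosen after their values were seen. Up to 4 called genes with the smallest p are named from each related list. Alternatives were other scalings, filters and tests, a replicate block, exact version matching and leaving out each library.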

Additional observations from a re-analysis of the deposited data

Results flagged for a closer look

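Hspg2 (perlecan) in DMSO replicate 2 measured 1797 CPM, whereas the other 4 DMSO libraries lay between 1531 and 1598 CPM. The gap to the nearest library was 0.747 of the range of the group, above the critical value of 0.71 for 5 libraries. It was 1 of 74 groups of 5 values looked at (37 genes in DMSO and in BPS), and chance alone would mark about 1 in 20 of them. Without this library the log2 fold change of Hspg2 was 0.02 (adjusted p = 0.772 by edgeR), in place of -0.02 (adjusted p = 0.839).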

How the results depend on the processing

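Of the 37 genes, 4 to 10 were called over the alternatives. Leaving out 1 library at a time gave 6 to 9 called members (3 to 6 higher, 3 to 4 lower), 449 to 774 called genes over the whole table, 282 to 464 of them higher, and 6 to 16 called genes of the related lists. Without 1 library the difference in the Fbln2 variable exon share ran from 2.60 to 2.94 points and that in the Fn1 EDA exon share from -2.99 to -2.2. With exact version matching, 31 members were tested and 4 called, 1 of them lower; the whole table then had 328 calls, 211 of them higher, and the related lists 5. Tnxb read 0.074 (adjusted p = 0.981), and the cause of the other changes was not tested.

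With the replicate block, 8 members were called (Mfap5 gained with an adjusted p of 0.0215, Efemp2 lost with 0.0674), against 374 genes over the whole table, 234 of them higher, and 3 of the related lists. Deviations from the group mean, compared between libraries with the same number, had correlations of 0.10, 0.004, -0.067, 0.072 and -0.078. Libraries with different numbers were not compared, so these values do not settle if the numbers pair samples. DESeq2's Wald test called 10 members and 952 genes.

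For Tnxb by transcript, the log2 fold change was 0.08 for NM_031176.2, 0.32 for XM_006525185.3, 2.01 for XM_006525186.3, -0.32 for XM_006525188.3 and -2.30 for XM_006525189.3 alone, -1.06 (adjusted p = 0.0774) summed without XM_006525188.3 and 0.11 without XM_006525189.3. Depth limits Comp most, at 15 to 31 counts per library.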
